A study of Mus musculus with 864 samples.

Results

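The neurons described here are single cells of the Th class from the mouse lumbar dorsal root ganglion, 100 picked at room temperature (RT) and 91 picked with cooling, and the plates of both kinds are compared. They came from 799 wells labelled as holding a single cell, of which 694 had 1000 or more genes above 0. A well was taken when it held at least 200 RPM of Th, which 32.9% of the 694 wells did (RPM, the reads of a gene scaled to a fixed total per well). Limits of under 100 RPM of Mrgprd, 500 RPM of Pvalb and 5000 RPM of Tac1 then removed 5, 1 and 27 wells. A limit of 1000 RPM for the sum of Hba-a2, Hbb-b2 and Beta-s, which are haemoglobin transcripts, removed 4 and left 27.5% of the 694. Ganglia of C57/Bl6 mice aged 6 to 8 weeks were dissociated with enzymes, kept on ice outside that step, and the cells were drawn one by one into a glass capillary. Libraries were tagged at the 5′ ends of the transcripts.

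The RT group held 5 plates. Plates L128, L129 and L130 came from picking session A, and gave 18, 21 and 21 Th neurons. Plates L141 and L142 came from session B, with 18 and 22. The cooled group was session C, with 27 Th neurons on plate L226, 26 on L227, 33 on L228, 4 on L282 and 1 on L281. All were from males, except 11 of the 21 cells on L129 and all 27 on L226. Plate L281 was left out of every test, which left 100 RT and 90 cooled cells. The labels give no transgene or treatment in either group. Cooling and session C are the same plates, so the temperature and anything else that set session C apart cannot be told apart. The labels name no animal, so the plate was the replicate, and p-values measure only the spread between plates, which may be technical.

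Th neurons of the ganglion are unmyelinated touch neurons, the C-fibre low-threshold mechanoreceptors of hairy skin, and they carry the vesicular glutamate transporter Slc17a8. Enzymes and handling are known to switch on immediate early and heat shock genes in living cells, and mild cold is known to raise the RNA-binding proteins Cirbp and Rbm3. Messenger RNAs of ribosomal proteins begin with a tract of pyrimidines at the 5′ end, through which their translation is controlled.

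The members were chosen by their measured RPM of Th and of the other genes in the rule, so the level of Th is given as a description. Session A plates held 6094, 4593 and 5144 RPM of Th, session B plates 1396 and 1243 RPM, and cooled plates 1496, 1125, 1553 and 2344 RPM. The session A plates were thus the highest, and the session B plates lay within the range of the cooled ones. The Th neuron nearest the limit held 210.6 RPM, and the highest well kept out by Th alone held 193.9 RPM. For Mrgprd the nearest values inside and outside were 84.4 and 149.6 RPM, for Pvalb 402.1 and 1501 RPM, for Tac1 4947 and 5046 RPM, for the haemoglobin sum 939.4 and 11440 RPM, and for detected genes 1125 and 868. Of 7 other listed markers, Piezo2 was not analysed here. The remaining 6, Slc17a8, Gfra2, P2ry1, Fam19a4, Zfp521 and Cdh9, had higher means in Th neurons than in the other single-cell wells on 9 of 9 plates. Slc17a8 lay between 37.2 and 270.4 RPM in Th neurons and between 0.708 and 30.8 RPM in the other wells. Gfra2, a co-receptor for neurturin, lay between 345.9 and 780.8 RPM against 25.9 to 317.4 RPM. These wells thus carried the markers of the class they are named for.

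Depth differed between the groups and between the sessions. Median reads per Th neuron ran from 10182 to 12393.5 on session A plates, were 161536 and 172134 on session B plates, and ran from 1017390 to 10632000 on cooled plates. On the log10 scale the cooled plates were higher by 1.95, with an exact two-sided permutation p of 0.00794, the smallest that 5 against 4 plates can give (adjusted p = 0.0317 over 4 measures). The number of genes above 0 was 3458 ± 1138 (SD, n = 5 plates) at RT and 3794 ± 615 (n = 4) with cooling, exact permutation p = 0.556. With each cell thinned to 3000 reads the numbers were 1332 ± 118.1 and 1256 ± 131.1 genes, exact permutation p = 0.405. Of 32 control wells 3 held Th above 0. Their median over the 32 was 1619.5 reads, an estimate, since whole reads were not recovered in every column and some control wells had values of unsettled unit. Mitochondrially encoded RNA made up 5.81% of reads on L128 and 0.319% to 1.3% on the other 8 plates. Rows of repeat elements were above 0 in 4 wells of L128, in 77 to 95 of 96 wells on each of the other RT plates, and in 0 wells of the cooled plates, so the deposited rows are not alike between sessions. Their part in the results below was not tested, nor was that of depth, except where thinned values are given.

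**Figure D1:**
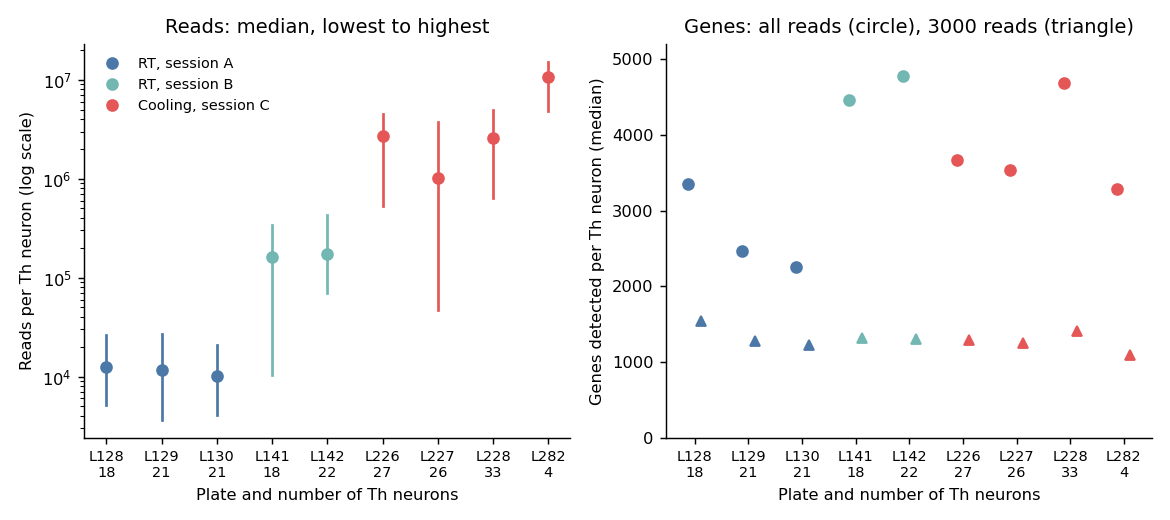
Left, reads per Th neuron on a log axis for each plate (point, median; line, lowest to highest cell). Right, median genes detected per Th neuron from all reads (circles) and from 3000 reads per cell (triangles). The cooled plates are the deepest, from 1017390 median reads upward, while the triangles of both groups lie between 1087.5 and 1534.5 genes.

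Of 9365 genes that averaged at least 5 RPM over the plates, 36 were higher and 62 lower in Th neurons picked with cooling (limma on log2(plate mean RPM + 5), Benjamini-Hochberg adjusted p under 0.05). These 98 genes were 1.05% of those tested, with 0.384% higher and 0.662% lower. At an unadjusted p under 0.05 there were 1075 genes, or 11.5%. The higher genes held messages of ribosomal proteins, a respiratory chain subunit and a tubulin cofactor. The lower genes held the peptidase Enpep, the sodium pump regulator Fxyd7, the secreted protein Fam19a2, the RNA-binding protein Rbm11 and proteasome subunits. Differences are on the log2(RPM + 5) scale, which understates those of low genes. They ran from 1.21 to 3.15 among the higher genes, with a median of 1.58, and from 0.95 to 4.84 in size among the lower genes, with a median of -2.45. Over all genes tested the median difference was -0.11. Plate values of 34 of the 36 higher and 56 of the 62 lower genes did not overlap between the groups, beside 5.94% of all genes tested, 3.11% on the higher and 2.83% on the lower side.

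The number of calls depended on plates and scale. Centring each plate on its median gene left 0 higher and 1 lower gene and moved the median difference of all genes from -0.11 to 0.40. With no centring and without plate L282, which held 4 cells, there were 56 higher and 78 lower genes. Median centring was not combined with leaving out L282. Without L129 there were 26 and 37, and without L130 19 and 32. With each cell thinned to 3000 reads 37 genes were higher and 65 lower, and 58 of the 98 remained. In edgeR's quasi-likelihood test of recovered reads 5 were higher and 18 lower, and 21 of those were among the 98. Of 40 genes that passed and were fixed by rule for naming, 30 lost the call in edgeR, Rpl10a, Fxyd7, Fam19a2 and Psmd4 among them (adjusted p = 0.117, 0.168, 0.117 and 0.104). When plates were left out in turn, 38 of the 98 genes kept an adjusted p under 0.05 each time. Plate values are given below in the order in which the plates were introduced.

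**Figure D2:**
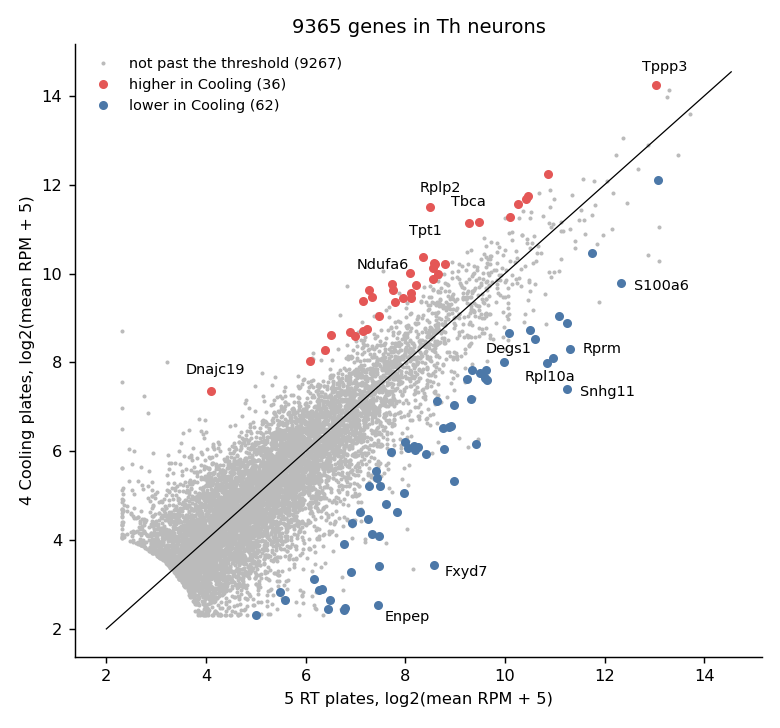
Each point is 1 of 9365 genes in Th neurons, with log2(mean RPM + 5) over 5 RT plates on the x axis and over 4 cooled plates on the y axis. The 36 higher genes (red) lie above the line of equal values and the 62 lower genes (blue) below it, with Enpep and Fxyd7 the farthest from it on the lower side.

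Ribosomal protein messages passed the test in both directions. Of 80 measured, 5 were higher and 1 was lower, and the median difference was 0.29 against -0.11 for all genes. Positive differences stood in 53 of the 80 and negative ones in 27. Plate values did not overlap for 14 genes on the higher side and 2 on the lower, beside 3.11% and 2.83% of all genes. The summed level of the list overlapped between the groups, with 27230 to 63050 RPM on RT plates and 37478 to 76236 RPM on cooled plates. Without L282, 3 were higher (Rplp2, Rps6 and Rpl35) and 3 lower (Rpl10a, Rps14 and Rps19), and the median was 0.23, beside 0.16 for all genes. Many ribosomal protein genes have near-identical copies elsewhere in the genome, and how the counting treated reads that fit several copies is not given in the sources used here.

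Rplp2, an acidic protein of the ribosomal stalk, had the lowest adjusted p of the higher genes. Rplp2 stood at 283.1, 397.4, 431.7, 328.3 and 349.1 RPM on the RT plates and at 3180.4, 1700.1, 2724 and 4037 RPM on the cooled plates. Every cooled plate was thus above every RT plate, and the RT plates lay close together. The difference was 2.95 ± 0.30 (SE), adjusted p = 1.79e-06, or 8.13-fold between the group means. Reads were found in 94 of 100 RT cells and 88 of 90 cooled cells. The call was kept whichever plate was left out, with differences from 2.77 to 3.19, and the single cell of the untested cooled plate L281 held 6289 RPM.

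Rps6, the small subunit protein that S6 kinase phosphorylates, was also higher. Rps6 stood at 503.9, 816.2, 782.8, 745.95 and 679.7 RPM on the RT plates and at 2458, 2581, 1792 and 2325 RPM on the cooled plates. The groups did not overlap, the difference was 1.70 ± 0.28 (SE) (adjusted p = 0.00157), and the call was kept whichever plate was left out. Rpl35 stood at 199.5, 397.3, 383.6, 470.3 and 419.1 RPM on the RT plates and at 1076, 947.96, 1154 and 1607 RPM on the cooled plates. Rpl35, of the large subunit, thus rose by 1.69 ± 0.32 (SE) (adjusted p = 0.00523), with L128 below the other RT plates. Rpsa and Rps13, both of the small subunit and chosen after their values were seen, rose by 1.52 ± 0.37 (SE) and 1.51 ± 0.38 (SE) (adjusted p = 0.0361 and 0.0464). Each kept its call in 2 of the 9 fits that left out 1 plate, with adjusted p-values of up to 0.0997 without L130 and 0.137 without L228, and edgeR did not call them (adjusted p = 0.12 and 0.117). Rps13 overlapped between the groups, with 394.3 RPM on L129 against 359.6 RPM on L227.

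Rpl10a, of the large subunit, went the other way. Rpl10a stood at 685, 2475, 3990, 1247 and 1603 RPM on the RT plates and at 303.5, 162.9, 188.4 and 424.3 RPM on the cooled plates. No cooled plate reached the lowest RT plate, and the RT plates spread widely. Rpl10a fell by 2.72 ± 0.42 (SE), adjusted p = 0.00199, and was called whichever plate was left out. Fau, which encodes a ubiquitin-like protein fused to a small subunit protein, and Tpt1, the translationally controlled tumour protein, are not in the list. Tpt1 stood at 323.97 ± 94.8 RPM (SD, n = 5) on the RT plates, with at most 399.4 RPM, and at 1062, 939.4, 995.1 and 2295 RPM on the cooled plates. Tpt1 was higher by 1.96 ± 0.34 (SE) (adjusted p = 0.00259), with L282 apart from the other cooled plates and the call kept without it (1.66, adjusted p = 0.00365). Fau, chosen after its values were seen, rose by 1.21 ± 0.28 (SE) (adjusted p = 0.0271), with an adjusted p of up to 0.0838 without L129.

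The starts of these genes are shown because the libraries read the 5′ ends of transcripts. Sequences are from RefSeq on build GRCm38.p6, on the strand of the gene, with 10 bases before the annotated start in lower case and 20 bases from the start on in capitals. The first line lies at chr7:141447641-141447670 (plus strand), Rps6 at chr4:86857348-86857377 (minus), Rpl35 at chr2:39005112-39005141 (minus), Rps13 at chr7:116334171-116334200 (minus), Rpsa at chr9:120127756-120127785 (plus), and the annotated starts of Rpl10a at chr17:28328461-28328490 and chr17:28328555-28328584 (plus).
Rplp2: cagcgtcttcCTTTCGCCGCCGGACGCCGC
Rps6: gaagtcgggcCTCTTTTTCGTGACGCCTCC
Rpl35: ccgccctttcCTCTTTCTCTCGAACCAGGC
Rps13: caaacgtcggTGAGTGGCGTCACTTCCTGT
Rpsa: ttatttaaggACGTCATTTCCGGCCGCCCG
Rpl10a, first: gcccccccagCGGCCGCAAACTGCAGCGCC
Rpl10a, second: atttgagcgcATGCGCAAAGCGCTCTGCCT
The strings CTTTC and CTCTT, which can overlap, were searched on both strands from 10 bases before to 30 bases after each start. CTTTC was found on the gene's strand for Rplp2, Rpl35, Rpsa and the second start of Rpl10a, and CTCTT for Rps6 and Rpl35. Rps13 and the first start of Rpl10a held neither. Among 69 promoters of 58 measured ribosomal protein genes, 21.7% held CTTTC on the gene's strand and 5.8% on the other. Among the 8744 promoters of all genes tested the shares were 3.87% and 3.95%, and among all 32851 promoters 4.85% and 5.14%. CTCTT stood in 21.7% and 0% of the ribosomal protein promoters, in 4.27% and 3.98% of those of all genes tested, and in 5.1% and 5.91% of all promoters. CTTTC was found in 4 of 30 promoters of the higher genes and 3 of 55 of the lower genes, on the gene's strand. The matches of Rpsa and of the second start of Rpl10a lie beyond the bases printed. A match describes the letters only.

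**Figure D3:**
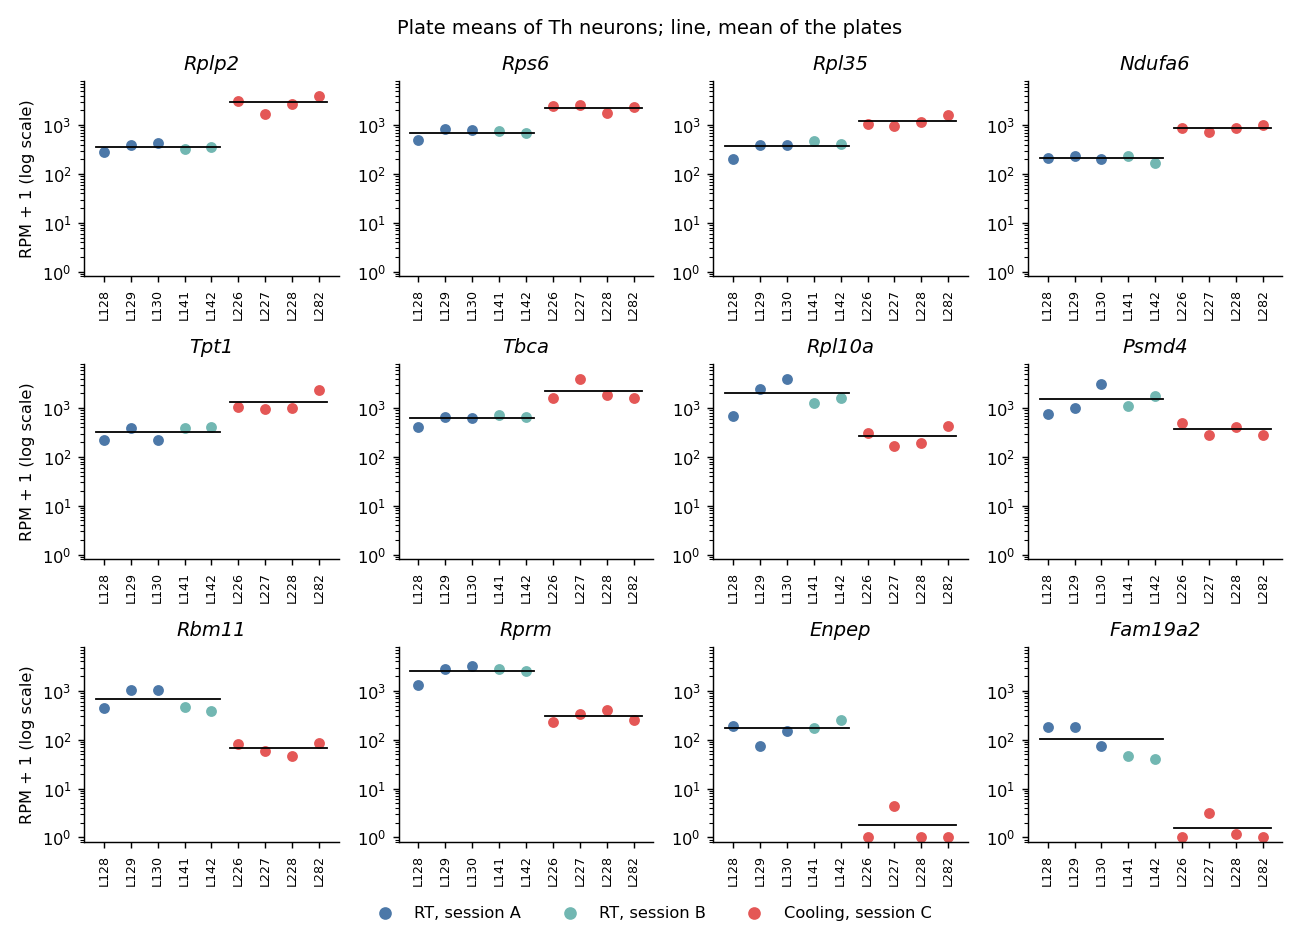
Plate means of 12 genes in Th neurons, as RPM + 1 on a log axis, with RT plates of sessions A (blue) and B (teal) and cooled plates (red). Lines mark the mean of the plates. In each panel the cooled plates lie wholly above (Rplp2, Rps6, Rpl35, Ndufa6, Tpt1, Tbca) or wholly below (the other 6) the RT plates.

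Of 76 measured respiratory chain genes encoded in the nucleus, 1 was higher and 0 lower, and edgeR called 1. At an unadjusted p under 0.05 there were 13 higher and 7 lower, beside 11.5% of all genes. The median difference of the list was 0.21, beside -0.11 for all genes. Without L282 the median was 0.05, beside 0.16 for all genes, and 2 were higher (Ndufa6 and Cox8a) and 2 lower (Ndufa5 and Sdha). Ndufa6 stood at 209.9, 237.3, 200.02, 229.8 and 168.6 RPM on the RT plates and at 863.9, 726.1, 887.1 and 989.9 RPM on the cooled plates. Ndufa6, an accessory subunit of complex I, did not overlap between the groups and varied little within them. It rose by 2.03 ± 0.32 (SE), adjusted p = 0.000834, and was kept whichever plate was left out, and by edgeR (adjusted p = 0.00537).

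Dnajc19, of the mitochondrial import motor, had the largest difference of the higher genes. Dnajc19 stood at 10.6, 9.71, 2.8, 22.1 and 15 RPM on the RT plates and at 113.6, 107.95, 78.1 and 339.6 RPM on the cooled plates. The difference was 3.15 ± 0.64 (SE) (adjusted p = 0.00933), with L282 highest. Reads were found in 31 of 100 RT cells and 60 of 90 cooled cells. Cooled plates had higher median reads per cell, so these shares of cells are not comparable between the groups. Cisd1, an iron-sulphur protein of the outer membrane, rose by 1.81 ± 0.35 (SE) (adjusted p = 0.00636). Romo1, an inner membrane protein chosen after its values were seen, rose by 1.38 ± 0.31 (SE) (adjusted p = 0.0239), with an adjusted p of up to 0.0679 without L227. The 19 measured mitochondrially encoded genes gave 0 calls in limma and 0 in edgeR, beside 1.05% and 0.247% of all genes. At an unadjusted p under 0.05 there were 0 higher and 4 lower, beside 11.5% of all genes. The median difference was -0.62, beside -0.11 for all genes. Leaving out single plates moved that median from -1.03 (without L228, beside -0.25 for all genes) to -0.30 (without L282, beside 0.16 for all genes). With cells thinned to 3000 reads 1 of them was lower, mt-Rnr1, a ribosomal RNA.

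Tbca stood at 416.6, 659.8, 629.9, 717.5 and 663.9 RPM on the RT plates and at 1596, 3943, 1881 and 1638 RPM on the cooled plates. Tbca, a tubulin folding cofactor, rose by 1.78 ± 0.31 (SE) (adjusted p = 0.00259), and L227 held more than the other plates. The call was kept whichever plate was left out. Tppp3, a tubulin polymerization protein chosen after its values were seen, had the highest level of the 98 genes, with 5809.7, 11869, 9094, 8109 and 7179.9 RPM at RT and 17896, 21705, 20708 and 17126 RPM with cooling. It rose by 1.24 ± 0.22 (SE) (adjusted p = 0.0029) and did not overlap. The dynein light chain Dynll1, chosen likewise, rose by 1.27 ± 0.28 (SE) (adjusted p = 0.0202), with an adjusted p of up to 0.0736 without L130.

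The other higher genes named by rank were of mixed function. Nmt1, a myristoyltransferase, held 64.7, 123.5, 104.7, 297.4 and 188.8 RPM at RT and 387.4, 1162, 487.9 and 782.1 RPM with cooling, and rose by 2.19 ± 0.42 (SE) (adjusted p = 0.0053). Serf1 rose by 2.10 ± 0.43 (SE) (adjusted p = 0.0104), from 114.4, 246.2, 156.2, 86.1 and 85.4 RPM to 294.9, 605.3, 401.1 and 1357 RPM. Both were kept whichever plate was left out. Sumo2, a ubiquitin-like modifier, Sarnp, an RNA-binding protein, Eapp, Wfdc2, 1700037H04Rik and Nutf2-ps1 had differences from 1.72 to 2.09. Sumo2 lost its call without L128 or L130, Sarnp without L129 or L227, 1700037H04Rik without L228, and Wfdc2 without L128, L129, L130 or L142. Eapp lost it without 6 of 9 plates and Nutf2-ps1 without 8 of 9. Wfdc2 was highest on L282, with 2036 RPM there and 307.3 to 422.1 RPM on the other cooled plates. Its difference without L282 was 1.30 (adjusted p = 0.0478). Nutf2-ps1 is named as a pseudogene, and its reads may be shared with its parent gene.

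Several lower genes were nearly absent from cooled plates. Enpep stood at 189.3, 74.1, 152.4, 177.01 and 253.3 RPM on the RT plates and at 0, 3.35, 0 and 0 RPM on the cooled plates. Enpep, which encodes glutamyl aminopeptidase, thus stood at 0 on 3 of 4 cooled plates although these were the deepest. Reads were found in 77 of 100 RT cells and 2 of 90 cooled cells. The difference was -4.84 ± 0.63 (SE), adjusted p = 6.86e-05. Enpep was called under all 26 other settings tried, those that leave out 1 plate included.

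Fam19a2, a secreted protein of the TAFA family and a listed Th neuron gene, showed the same pattern. Fam19a2 stood at 182.4, 182.8, 73.8, 46.6 and 39.1 RPM on the RT plates and at 0.0122, 2.12, 0.161 and 0 RPM on the cooled plates. It fell by 4.05 ± 0.68 (SE) (adjusted p = 0.00201), with reads in 71 of 100 RT cells and 8 of 90 cooled cells. Mreg stood at 107.7, 67.7, 270.2, 49.3 and 23.5 RPM on the RT plates and at 0, 1.36, 0.0349 and 0 RPM on the cooled plates. Mreg, or melanoregulin, fell by 3.93 ± 0.71 (SE) (adjusted p = 0.0029), with reads in 76 of 100 RT cells and 2 of 90 cooled cells. Neither gene overlapped between the groups. Nwd1, chosen after its values were seen, had reads in 50 of 100 RT cells, at 40, 9.72, 43, 15.5 and 28.2 RPM, and in 0 of 90 cooled cells, which allows a share of cells with reads of up to 3.33%. That limit covers counting error only, and the 90 cells share 4 plates and are not replicates.

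Others were detected in many cooled cells at a low level. BC018473 stood at 78.7, 59.4, 65, 114.6 and 104.3 RPM on the RT plates and at 1.16, 1.21, 1.88 and 0.725 RPM on the cooled plates. BC018473, a transcript of unknown role, fell by 3.80 ± 0.64 (SE) (adjusted p = 0.00199). It had reads in 68 of 100 RT cells and 69 of 90 cooled cells, shares that differ in depth and are not comparable. The row of the microRNA gene Mir690 was much the same, at 117.8, 65.6, 91, 146.3 and 151.9 RPM and 13.8, 1.74, 2.19 and 1.39 RPM, and fell by 3.71 ± 0.63 (SE) (adjusted p = 0.00221). Whether those reads come from the microRNA's own precursor is not known from the files. Fxyd7 stood at 65, 544.1, 926.4, 190.1 and 155.3 RPM on the RT plates and at 0.0606, 8.13, 14.8 and 0.237 RPM on the cooled plates. Fxyd7, a regulator of the sodium pump, fell by 4.82 ± 0.68 (SE) (adjusted p = 0.000252) and varied over more than an order of magnitude among RT plates.

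Rbm11, an RNA-binding protein that regulates splicing, had the lowest adjusted p of the lower genes named by rank. Rbm11 stood at 442.8, 1035, 1061, 470.4 and 384.7 RPM on the RT plates and at 81.5, 58.3, 44.7 and 83.4 RPM on the cooled plates. It fell by 3.15 ± 0.40 (SE) (adjusted p = 5.17e-05), with no overlap. Snhg11 stood at 6084, 2279, 1791, 327.2 and 1680.4 RPM on the RT plates and at 206.4, 151.2, 191.3 and 106.2 RPM on the cooled plates. Snhg11, a host gene of small nucleolar RNAs, fell by 3.37 ± 0.64 (SE) (adjusted p = 0.03), but the RT plates ranged from L141 to L128 by more than the gap between groups. It lost its call when any 1 of 7 plates was left out, and without L282 the adjusted p was 0.151. Arhgef11, a guanine nucleotide exchange factor, Nrbp1, a pseudokinase, and Strn4, a striatin, had differences of -3.77 ± 0.67 (SE), -3.56 ± 0.64 (SE) and -3.41 ± 0.62 (SE), and all 3 were kept whichever plate was left out. In edgeR Arhgef11 passed (adjusted p = 0.0295), while Nrbp1 and Strn4 did not (adjusted p = 0.225 and 0.324). Strn4 held 76.8 RPM on L226 and 0.0165 RPM on L282, so the cooled plates spread widely.

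The remaining genes named by rank depended on single plates. Ufd1l, a partner of the p97 ATPase, Ifngr1, the interferon gamma receptor, Scpep1, a carboxypeptidase, and Zfp930, a zinc finger protein, had differences of -3.60, -3.29, -3.27 and -3.10. Ifngr1 had reads in 25 of 100 RT cells and 7 of 90 cooled cells, and its RT plates ran from 5.81 RPM on L141 to 247.8 RPM on L142. Scpep1 lost its call without L130 (adjusted p = 0.0514). Ufd1l lost its call without 7 of 9 plates, and Ifngr1 and Zfp930 each without 6 of 9. Without L282 the difference of Ufd1l was -2.85 (adjusted p = 0.0553), and without L129 that of Zfp930 was -2.71 (adjusted p = 0.107). Without L128 the adjusted p of Ifngr1 was 0.0792.

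Other lower genes with low adjusted p-values lay outside the ranks that were named, and were chosen after their values were seen. Rprm stood at 1345, 2814, 3226, 2744 and 2508 RPM on the RT plates and at 233.2, 337.2, 414.4 and 252.1 RPM on the cooled plates. Rprm, or reprimo, a p53 target in other cells, fell by 2.99 ± 0.31 (SE) with an adjusted p of 1.79e-06, and had reads in 97 of 100 RT cells and 83 of 90 cooled cells. S100a6 stood at 2949.6, 3730.3, 12244, 3792 and 3114 RPM on the RT plates and at 1009.7, 769.1, 731.2 and 1001 RPM on the cooled plates. S100a6, a calcium-binding protein, fell by 2.32 ± 0.34 (SE) (adjusted p = 0.000487), with L130 above the other RT plates. Dad1 stood at 1388, 1812, 3011, 2431 and 3506 RPM on the RT plates and at 641.2, 518.9, 450.3 and 250.7 RPM on the cooled plates. Dad1, a subunit of the oligosaccharyltransferase, fell by 2.37 ± 0.33 (SE) (adjusted p = 0.000171). Degs1, a ceramide desaturase, fell by 2.74 ± 0.44 (SE) (adjusted p = 0.00259), from 2151, 2439, 2971, 596.3 and 963.2 RPM to 375.2, 253.9, 239.8 and 118.3 RPM. None of the 4 overlapped, and each was kept whichever plate was left out.

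Proteasome genes moved at single subunits. Of 34 measured proteasome and ubiquitin genes, 0 were higher and 2 lower, beside 0.384% and 0.662% of all genes tested. The median difference was 0.05, beside -0.11 for all genes. At an unadjusted p under 0.05 there were 4 higher and 3 lower, and edgeR called 0 of 34. Psmd4 stood at 754.2, 987.95, 3172, 1099 and 1767 RPM on the RT plates and at 497.8, 280.9, 402.7 and 283.2 RPM on the cooled plates. Psmd4, a ubiquitin receptor of the regulatory particle, fell by 1.92 ± 0.36 (SE) (adjusted p = 0.00463). Psma2 stood at 927.1, 1946, 2708, 698.6 and 996.5 RPM on the RT plates and at 313.8, 364.9, 345.8 and 647.5 RPM on the cooled plates. Psma2, an alpha subunit of the core, fell by 1.66 ± 0.37 (SE) (adjusted p = 0.0195). Neither overlapped, but the call of Psma2 was lost when any 1 of 5 plates was left out, with an adjusted p of up to 0.0877 without L130. Unlisted genes of this system, the receptor Adrm1 and the ligase subunit Rbx1, were chosen after their values were seen. They fell by 2.31 ± 0.52 (SE) and 1.92 ± 0.35 (SE) (adjusted p = 0.0227 and 0.0029), and without L130 the adjusted p of Adrm1 was 0.0916. Of 28 translation factors 1 was higher and 1 lower, beside the same shares of all genes. At an unadjusted p under 0.05 there were 5 higher and 4 lower, beside 11.5% of all genes, and edgeR called 0. Eif1b rose by 1.58 ± 0.39 (SE) and Eif3m fell by 1.58 ± 0.38 (SE) (adjusted p = 0.0459 and 0.033). Without L130 those adjusted p-values were 0.13 and 0.104.

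Immediate early genes showed no call. Of 22 measured, 0 passed in limma and 0 of 19 in edgeR, beside 1.05% and 0.247% of all genes. At an unadjusted p under 0.05 there were 1 higher and 1 lower, beside 11.5% of all genes. The median difference was 0.05, or 0.49 without L282, beside -0.11 and 0.16 for all genes. Btg1 stood at 29.1, 23.1, 16.9, 41.3 and 38.1 RPM on the RT plates and at 22.5, 546.1, 131.3 and 153.7 RPM on the cooled plates. Btg1, an antiproliferative gene, had the highest level of the list, and L226 lay among the RT plates (difference 2.01 ± 0.65 (SE), adjusted p = 0.157). Without L226 its adjusted p was 0.0189, with a difference of 2.77. Nr4a1 was carried by single plates, at 155.4 RPM on L141 and 423.2 RPM on L227, and between 0 and 17.2 RPM on the other 7 (adjusted p = 0.921). Ier3 and Jund had differences of -0.91 and 1.04 (adjusted p = 0.729 and 0.638). The summed level of the list was 285.1 to 1097 RPM at RT and 257.6 to 1506 RPM with cooling, so the groups overlapped.

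Heat shock genes gave 0 calls of 26 in limma and 0 in edgeR. Over all genes the shares were 1.05% and 0.247%, so 0 calls are near the share over all genes. At an unadjusted p under 0.05 there were 2 higher and 2 lower, beside 11.5% of all genes. Their median difference was -0.20, and 0.05 without L282, beside -0.11 and 0.16 for all genes. Hsp90ab1 stood at 6404, 7847, 6645, 5632 and 5884 RPM on the RT plates and at 5648, 5219, 5301 and 4792 RPM on the cooled plates. Hsp90ab1, a cytosolic chaperone, thus overlapped, with a difference of -0.30 ± 0.22 (SE) (adjusted p = 0.648). Hsp90aa1 and Dnaja1 differed by -0.07 and 0.07 (adjusted p = 0.957 and 0.963). Hspa8 stood at 2244, 4323, 2284, 2304 and 2443 RPM on the RT plates and at 1205, 1671, 1762 and 2190.3 RPM on the cooled plates. Hspa8, the constitutive chaperone of its family, did not overlap, but its difference of -0.65 ± 0.28 (SE) had an adjusted p of 0.337. Summed heat shock RNA was 13071 to 19149 RPM at RT and 12396 to 13678 RPM with cooling.

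No cold-inducible RNA-binding protein passed the test. Rbm3 stood at 325.9, 508.6, 408.8, 388.5 and 323.99 RPM on the RT plates and at 235.6, 404.7, 361.4 and 1175 RPM on the cooled plates. Rbm3 had a difference of 0.22 ± 0.38 (SE) (adjusted p = 0.878), with L282 above the RT plates and L226 below them. Cirbp stood at 182.7, 233.5, 655.9, 117.5 and 116.9 RPM on the RT plates and at 89.1, 62.7, 71.6 and 56.2 RPM on the cooled plates. Cirbp lay lower on every cooled plate, with a difference of -1.53 ± 0.47 (SE) that did not pass (adjusted p = 0.125). Set against single RT sessions in limma, Cirbp passed against A (-2.06, adjusted p = 0.0255) and not against B (-0.72, adjusted p = 0.875). Of 6 measured genes in the list 0 passed in limma and 0 in edgeR, beside 1.05% and 0.247% of all genes. At an unadjusted p under 0.05 there were 0 higher and 3 lower, beside 11.5% of all genes. The median was -0.43, or -0.42 without L282, beside -0.11 and 0.16 for all genes. Summed RNA of the list was 1728.4 to 2174.5 RPM at RT and 1068.5 to 1637.5 RPM with cooling, without overlap. Rtn3 and Srsf5 had differences of -0.75 and -1.66 (adjusted p = 0.37 and 0.32).

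Stress of the endoplasmic reticulum was represented by 1 call in 19 genes, beside 1.05% of all genes tested. Of the 19, 14 had a negative difference, and the median was -0.40, beside -0.11 for all genes. At an unadjusted p under 0.05 there were 1 higher and 2 lower, and edgeR called 0. Without L282 the median was 0.10, beside 0.16 for all genes. Hsp90b1 stood at 412.7, 361.6, 224.7, 340.2 and 512.1 RPM on the RT plates and at 989.2, 1717, 1269 and 442.1 RPM on the cooled plates. Hsp90b1, the chaperone Grp94, rose by 1.45 ± 0.37 (SE) (adjusted p = 0.0466). L282 lay within the RT range, and the call was lost when any 1 of 7 plates was left out, with an adjusted p of up to 0.191 without L227. Canx, Calr, Atf4 and Pdia3, of protein folding and the stress response, had differences of -0.21, -0.08, 0.25 and -0.45 (adjusted p = 0.886, 0.964, 0.869 and 0.712). Of 24 oxidative stress genes 0 were higher and 1 was lower, Txn1, or thioredoxin, beside 0.384% and 0.662% of all genes tested. At an unadjusted p under 0.05 there were 2 higher and 5 lower, beside 11.5% of all genes, and edgeR called 0. The list median was -0.43, or -0.18 without L282, beside -0.11 and 0.16 for all genes. Without L282 none of the list passed. Txn1 stood at 5879, 8421, 8692, 9689 and 10201 RPM on the RT plates and at 5457, 4255, 4675 and 3337 RPM on the cooled plates. It fell by 0.95 ± 0.23 (SE) (adjusted p = 0.0432), without overlap, but lost its call when any 1 of 8 plates was left out (adjusted p of up to 0.114, without L227). None of 13 axon injury genes passed in limma and none in edgeR, beside 1.05% and 0.247% of all genes. At an unadjusted p under 0.05 there were 0 higher and 1 lower, beside 11.5% of all genes. Tubb2b, Cacna2d1, Smad1 and Klf6 of that list had differences of 0.39, 0.03, 0.80 and -0.28 (adjusted p = 0.704, 0.992, 0.734 and 0.928).

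**Figure D4:**
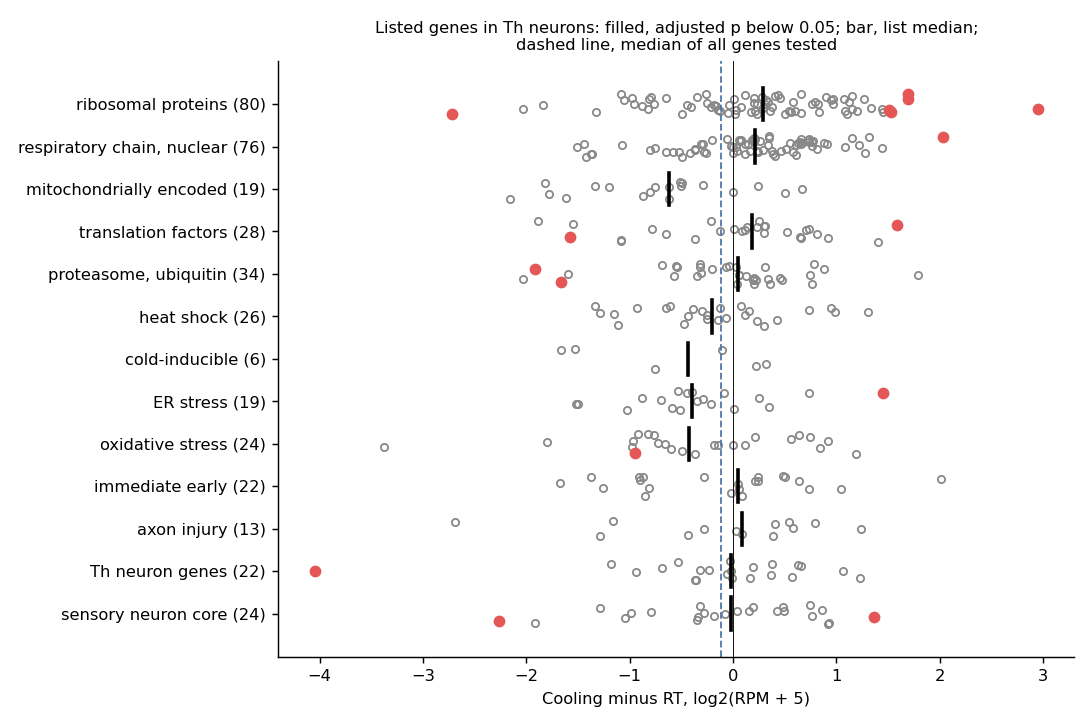
Cooling minus RT on the log2(RPM + 5) scale for the measured genes of 13 lists, 1 point per gene, filled where the adjusted p was under 0.05. The bar is the list median and the dashed line the median of all genes tested, -0.11. The list medians lie between -0.62 (mitochondrially encoded) and 0.29 (ribosomal proteins), within the spread of single genes.

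Genes that mark the class gave 1 call. Of 22 measured Th neuron genes 1 was lower, Fam19a2, and 0 were higher, with a median difference of -0.02. Th itself, by which the cells were chosen, is 1 of the 22. Ret stood at 648.7, 694.7, 508.1, 602.1 and 507.7 RPM on the RT plates and at 730.99, 868.3, 834.7 and 384.6 RPM on the cooled plates. Ret, the receptor of the GDNF family, overlapped (difference 0.19 ± 0.32 (SE), adjusted p = 0.871). Fam19a4 was highest on the session B plates, at 1000.3 and 1445 RPM, and lay between 414.2 and 627.4 RPM elsewhere. Rgs4, a regulator of G-protein signalling, and Nrn1, or neuritin, had differences of -0.32 and -0.24 (adjusted p = 0.765 and 0.826). Of 24 genes of sensory neurons at large, Vamp1 was lower. Vamp1 stood at 364.1, 308.8, 1068, 466.7 and 190.2 RPM on the RT plates and at 100.96, 100.7, 126.5 and 30.9 RPM on the cooled plates. Vamp1, a synaptobrevin, fell by 2.26 ± 0.46 (SE) (adjusted p = 0.0108), and without L130 its adjusted p was 0.055. Potassium channels gave 0 calls of 20 in limma and edgeR, with 1 at an unadjusted p under 0.05. TRP and thermal channels gave 0 of 4 in limma and 0 of 3 in edgeR, with 0 unadjusted. Over all genes the shares were 1.05% in limma, 0.247% in edgeR and 11.5% unadjusted, so lists of this size can give 0 calls.

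No marker of another cell type passed the test. Satellite glia markers summed to 625.2 to 4620 RPM at RT and 919.3 to 2020.5 RPM with cooling, the highest on L141, where Apoe stood at 2161 RPM. Fibroblast markers summed to 52.8 to 1034 RPM and 1.14 to 722.9 RPM. Immune markers summed to 2.21 to 96 RPM and 0.0941 to 364.9 RPM, of which Lyz2 on L227 was 360.4 RPM, and C1qa and Cx3cr1 were at 0 on all 9 plates. Endothelial markers summed to 110.8 to 283.5 RPM and 0.076 to 87 RPM. On the RT plates almost all came from Egfl7, with Cldn5 and Pecam1 at 0. On the cooled plates Egfl7 stood at 63.5, 46, 52.8 and 0.0237 RPM. Cldn5 stood there at 0.859, 0.662, 16.3 and 0 RPM, and Pecam1 at 0, 0.832, 9.57 and 0 RPM. Schwann cell markers summed to 1339 to 2095 RPM and 1335 to 1687 RPM, mostly Pmp22. The summed levels overlapped between the groups for each of these lists except the endothelial one. Without L282, the 1 endothelial gene tested, Egfl7, passed as lower and 1 of 3 immune genes, Lyz2, as higher. Markers of other neuron classes lay mostly on the lower side. Of 10 measured markers of large Pvalb-like neurons 9 had a negative difference, with a median of -1.07. The medians were -1.01 over 4 markers of peptide neurons and -0.98 over 5 of Mrgprd-like neurons, beside -0.11 for all genes. In limma and in edgeR 0 of the 19 passed, beside 1.05% and 0.247% of all genes. Pvalb and Tac1, which are in the rule, are among them. Without L282 the medians were -0.76, -0.94 and -0.23. Summed levels overlapped, at 388.8 to 1576 RPM on RT plates and 250.3 to 730.5 RPM on cooled plates for the large neurons, 1555 to 1971 RPM and 1116 to 1582 RPM for the peptide neurons, and 171.5 to 230.2 RPM and 27.1 to 252.2 RPM for the Mrgprd-like ones. Nefh, a neurofilament of large neurons, ran from 45.8 to 503.8 RPM and from 0.712 to 129.4 RPM (difference -1.91, adjusted p = 0.462). The part of such RNA in the differences above was not tested.

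Both RT sessions allow a difference between sessions without one in temperature to be set beside that of session C. No pair of sessions was matched for depth. Median reads per cell were 10182 to 12393.5 in A, 161536 and 172134 in B, and 1017390 to 10632000 in C. The gap was thus widest between C and A. Between sessions A and B 12 of 9365 genes (0.128%) passed, 6 higher and 6 lower in A (0.0641% each), with 4.27% at an unadjusted p under 0.05. Between C and A 1.44% passed, 39 genes higher (0.416%) and 96 lower (1.03%) in C, with 10.7% unadjusted. Between C and B 37 passed (0.395%), 9 higher (0.0961%) and 28 lower (0.299%), with 7.6% unadjusted. The latter comparisons share the cooled plates, and sessions A and B have 3 and 2 plates. Without L282 the shares were 0.919%, 2.81% and 1.02%, without L129 0.0322%, 0.751% and 0.311%, and without L130 0.0107%, 0.459% and 0.341%. They were 0.043%, 1.16% and 0.0968% without L141 and 0.0966%, 1.15% and 0.0751% without L142, and without L128 that of C against A was 0.95%.

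Rplp2 differed by 2.91 from session A (adjusted p = 2.07e-05) and by 3.02 from session B (adjusted p = 7.63e-05). Sessions A and B differed in Rplp2 by 0.11 (adjusted p = 1). For Rprm the values were -2.91 and -3.10 (adjusted p = 2.07e-05 and 7.63e-05), for Enpep -4.56 and -5.25 (adjusted p = 0.000804 and 0.00213), and for Rbm11 -3.50 and -2.62 (adjusted p = 2.66e-05 and 0.00832). These 4 genes therefore differed from each RT session on its own. Snhg11 and Fam19a2 passed against session A (-4.16 and -4.67, adjusted p = 0.000422 and 0.000984) and not against session B (-2.19 and -3.11, adjusted p = 0.177 and 0.161). Their A minus B differences were 1.97 and 1.56 (adjusted p = 0.497 and 1).

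Other neurons on the same plates served to ask whether the differences were larger or smaller in Th neurons. There were 84 neurons with 100 RPM or more of Mrgprd, and those on 5 RT plates and on L226 and L227 were used. Of 58 neurons with 500 RPM or more of Pvalb, those on 5 RT plates and on L226 and L228 were used. The within-plate difference between Th and Mrgprd neurons changed with cooling in 0 of 9428 genes (0.0%) in limma, with 514 (5.45%) at an unadjusted p under 0.05. Against Pvalb neurons it changed in 0 of 9671 genes (0.0%), with 1109 (11.5%) unadjusted. The median of that change over all genes was 0.03 for Mrgprd neurons and 0.46 for Pvalb neurons, the latter -0.08 when profiles were centred on the median gene. With 2 cooled plates these tests are weak, and they do not show that the classes were alike.

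The values of genes in each class are given side by side, with those of Th neurons taken over the same plates. Rplp2 differed by 2.99 in Mrgprd neurons and 3.53 in Pvalb neurons, beside 2.70 and 3.04 in Th neurons on those plates. Ndufa6 differed by 2.11 and 2.05, beside 1.91 and 2.05. Enpep differed by -5.30 and -5.76, beside -4.65 and -5.02. Their signs were thus the same in all 3 classes. Genes whose value was nearer 0 outside Th neurons included Wfdc2, a secreted protein (-0.34 and -0.15, beside 1.27 and 1.43), and Fam19a2 in Pvalb neurons (-0.94, beside -4.16). Their interaction tests gave adjusted p-values of 0.899 and 0.373 for Wfdc2 and 1 and 0.303 for Fam19a2. Slit1, an axon guidance protein chosen after its values were seen, differed by 2.02 in Mrgprd neurons, against -3.11 in Th neurons on those plates (interaction adjusted p = 0.3). The median over the 36 higher genes was 1.28 in Mrgprd and 1.45 in Pvalb neurons, beside 1.49 and 1.47 in Th neurons on the same plates. Over the 62 lower genes it was -1.88 and -2.24, beside -2.33 and -2.19. These genes were called in Th neurons, so the medians are a description.

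**Figure D5:**
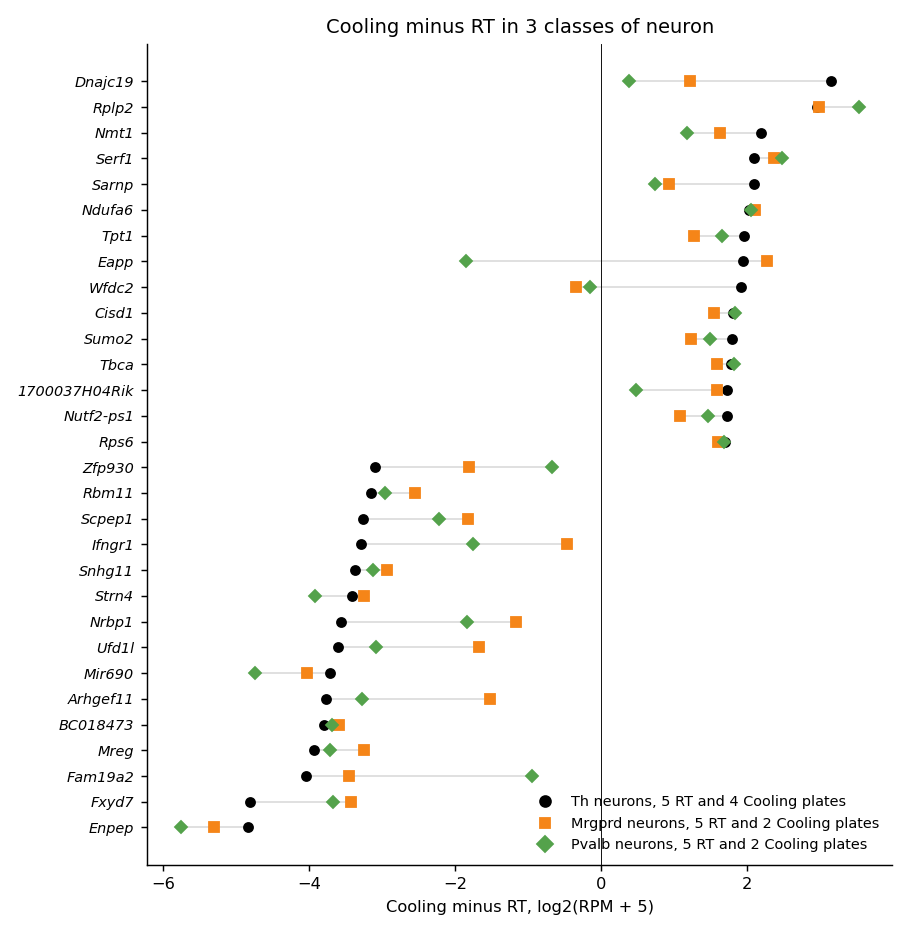
Cooling minus RT on the log2(RPM + 5) scale for the 30 genes named by rank, in Th (circles), Mrgprd (squares) and Pvalb neurons (diamonds). The Th values are over all 4 cooled plates, and the other classes over 2 of them each. Enpep stands at -4.84, -5.30 and -5.76, and Eapp in Pvalb neurons (-1.85) lies across 0 from its value in Th neurons.

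Transcript lengths of the called genes are given as a description. The longest annotated transcript had a median of 1131.5 bases over 34 of the 36 higher genes and 2557 bases over 56 of the 62 lower genes (GENCODE vM21). The median was 3440 bases over all genes tested and 2697 bases over those with a mean of 100 RPM or more. RPM are not scaled by length, and a 5′-end library is meant to give 1 tag position per transcript.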

How the data were processed

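Single cells were read from 5′-end libraries, and the authors deposited 1 table of RPM per gene and well. Per the submitters' processing notes, Bowtie and the mm9 build were used; the version, the annotation and the treatment of multi-mapped reads are not given in the sources used here. Of 25333 lines, 1217 for repeat elements were left out and the lines of gene copies were summed, giving 23281 genes. In 841 of 864 columns whole reads were recovered from the RPM steps, with 99.5% of values whole within 0.1. For 4 control wells the deposited values, whose unit could not be settled, were kept as a score and used in no test. Reads carry no molecular identifiers, so limits cover counting error only.

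Members and gene lists were chosen with earlier results of these data known. Mean RPM per plate over Th neurons was taken, and log2(mean + 5) of genes averaging at least 5 RPM was fitted in limma (trend, robust), two-sided, with Benjamini-Hochberg adjustment at 0.05. Plate L281, with 1 cell, was under the minimum of 3 cells, so 5 plates were compared with 4. Session contrasts came from a fit with 1 mean per session, and the class contrasts from within-plate differences. The script was tested on simulated data. edgeR's quasi-likelihood test on summed recovered reads was an alternative, beside other scalings, filters, pseudocounts, cell sets and plates left out. The genes named are the 15 highest and 15 lowest without overlap and with 20 RPM or more in the higher group, up to 4 passing members of each list, and up to 4 further members of 6 lists by mean RPM. Genes outside this rule are said to be chosen after their values were seen. No doublet caller was run, and wells labelled as other than a single cell were left out. Promoters came from RefSeq (GRCm38.p6), so coordinates are not those of the deposited build, and lengths from GENCODE vM21. Versions were Python 3.11.15, R 4.3.3, limma 3.58.1, edgeR 4.0.16, numpy 2.4.6, pandas 2.3.3, scipy 1.17.1 and matplotlib 3.10.9. Some genes that were measured and counted are not reported here by name.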

Additional observations from a re-analysis of the deposited data

Results flagged for a closer look

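For 64 genes, each looked at in both groups of plates, 16 plate means stood apart from the others of their group by Dixon's criterion on the log2(RPM + 5) scale, and chance gives about 1 in 20 groups. Plate L282, with 4 cells, gave 8 of them. It was high for Tpt1 at 2295 RPM and Wfdc2 at 2036 RPM, and low for Eif3m at 105.8 RPM, Vamp1 at 30.9 RPM, Hsp90aa1 at 1016 RPM, Srsf5 at 3.54 RPM, Atf4 at 95.7 RPM and Nrn1 at 411.6 RPM. Plate L227 was high for Enpep at 3.35 RPM, Fam19a2 at 2.12 RPM and Mreg at 1.36 RPM, where the other cooled plates were at or near 0. Plate L226 was high for Mir690 at 13.8 RPM, and L228 was low for Pdia3 at 121.1 RPM. Among RT plates L128 was low for Tbca at 416.7 RPM and Rpl35 at 199.5 RPM, and L129 was high for Hspa8 at 4323 RPM. Mitochondrially encoded RNA took 5.81% of reads on L128, against 0.54% to 1.3% on the other RT plates.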

How the results depend on the processing

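Calls made up 1.05% of genes tested (36 higher, 62 lower). The share was 0.0107% (0 and 1) with plates centred on the median gene and 0.247% (5 and 18) in edgeR. With no filter on low values it was 0.0623% (3 and 7). With cells pooled by session and sex as replicates, as the labels name no preparation, it was 0.577% (12 and 42). Weighting plates by cells gave 2.93% (43.1% of them higher). With plates left out in turn it ran from 0.544% (without L130) to 1.42% (without L282), and was 0.676% without L129. TMM scaling gave 81 calls (21 and 60), and centring on genes of 100 RPM or more, chosen after seeing the data, gave 34 and 75. Of 40 named genes that passed, 1 was kept with median centring, 8 with no filter, 10 in edgeR and 22 with session-sex pools. In the other settings 26 to 40 were kept, with 29 in male cells alone and 34 with the female share of each plate as a covariate. Male cells alone, which leaves out L226, gave 67 calls (21 and 46), and the covariate gave 73 (22 and 51). None of these 40 named genes changed sign in a setting run. Between sessions A and B the 0.128% became 0% with median centring, 0.118% among genes of 20 RPM or more (7 calls in place of 12), and 0.0107% (without L130) to 0.919% (without L282) with plates left out. For C against A the 1.44% became 0.0107% with median centring and 0.459% (without L130) to 2.81% (without L282) with plates left out. For C against B the 0.395% became 0% with median centring, 0.304% among genes of 20 RPM or more (18 calls in place of 37), and 0.0751% (without L142) to 1.02% (without L282) with plates left out. Interaction counts were 0 in every setting run. On L282 36% of tested genes were at 0, against 0.929% to 13.7% on the other plates. The causes of the changes between settings, that with median centring included, were not tested. Session A cells had median reads of 10182 to 12393.5, which limits what low genes can show there. No paired analysis was possible because plates carry no shared replicate numbers.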
